A study of Rattus norvegicus with 82 samples.

Results

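The genes described here code for 10 serotonin receptors of the rat, Htr1a, Htr1b, Htr1d, Htr2a, Htr2c, Htr3a, Htr4, Htr5a, Htr5b and Htr7. They were chosen by their symbol in the array's platform annotation, which gives these symbols to 17 of the 31099 probe sets (sets of short oligonucleotides that together read 1 transcript). RNA from 7 brain regions was hybridised to 82 arrays, and 80 of these could be placed in a group by region, treatment and time of day. The treatments are labelled Sham, ADX and pADX and the times AM and PM. ADX commonly abbreviates adrenalectomy (surgical loss of both adrenals) and Sham a mock operation, but the labels spell out neither, and they do not say what the p of pADX stands for. Strain, age, sex, the interval after surgery, any replacement treatment and the number of animals behind an array were not stated in the labels. The frontal cortex had 10 arrays (3 Sham, 3 ADX, 4 pADX), the hippocampus had 10 (4 Sham, 4 ADX, 2 pADX, both labelled PM), and the amygdala, septum, locus coeruleus, dorsal raphe and hypothalamus had 12 each (4 per treatment).

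Serotonin is made in the brain by neurons of the raphe nuclei, whose fibres reach nearly every other region. Its receptors fall into classes by what they couple to. The 5-HT1 and 5-HT5 receptors act through Gi/o proteins and mostly quiet the cell, the 5-HT2 receptors act through Gq/11 and phospholipase C, the 5-HT4 and 5-HT7 receptors raise cyclic AMP through Gs, and the 5-HT3 receptor is a cation channel. Several of these genes have long been studied in the hippocampus and raphe for their response to adrenal corticosteroids, which act on the brain through the mineralocorticoid and glucocorticoid receptors and vary over the day.

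Values are log2 signals after quantile normalization across arrays, so that a difference of 1 is a doubling of signal. Signals under 16 were set to 16, a floor of 4 on the log2 scale, and values at the floor have no order. Of the 17 probe sets, 2 had every one of the 80 grouped arrays at the floor (1369894_at of Htr2a and 1371290_a_at of Htr7), 5 had over 50% of arrays there (these 2 among them), 6 had some arrays there and 6 had none. For each gene the probe set with the highest mean signal is described, and levels of different genes are not compared, because a probe set's brightness also depends on its oligonucleotides. Replicates were not stated to come from separate animals, so p-values measure the spread between these samples, and in tissue pieces fewer cells of a type cannot be told apart from less RNA per cell.

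RefSeq promoters (rat assembly GRCr8) were at hand for 6 of the 10 genes. The 250 bases before the start of Htr2c, whose regions differed most of all the receptors, and of the related pair Htr5a and Htr5b, whose regional patterns differed, are shown in full. Capitals mark TGTTCT, a core of glucocorticoid and mineralocorticoid receptor binding elements, and GGGCGG, the GC box, each searched on both strands; no matches overlapped. Htr2c lies at chrX:115452940-115453189 on the plus strand, Htr5a at chr4:8188486-8188735 on the minus strand and Htr5b at chr13:35252587-35252836 on the minus strand.
Htr2c: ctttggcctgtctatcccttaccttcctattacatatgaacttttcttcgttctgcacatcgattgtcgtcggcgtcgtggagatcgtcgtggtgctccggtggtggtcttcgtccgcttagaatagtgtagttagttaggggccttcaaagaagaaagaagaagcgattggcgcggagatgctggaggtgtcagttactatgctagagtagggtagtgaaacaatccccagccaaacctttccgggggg
Htr5a: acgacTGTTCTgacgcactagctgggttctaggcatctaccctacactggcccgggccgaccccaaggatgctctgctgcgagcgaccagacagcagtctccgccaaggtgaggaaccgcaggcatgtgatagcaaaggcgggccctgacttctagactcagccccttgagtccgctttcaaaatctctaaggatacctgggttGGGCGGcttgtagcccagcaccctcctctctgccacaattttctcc
Htr5b: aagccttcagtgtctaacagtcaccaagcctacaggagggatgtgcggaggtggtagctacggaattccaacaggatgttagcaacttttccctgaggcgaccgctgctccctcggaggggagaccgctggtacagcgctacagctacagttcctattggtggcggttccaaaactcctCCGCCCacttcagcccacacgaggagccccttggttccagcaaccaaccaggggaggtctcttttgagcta
TGTTCT was found 1 time in Htr5a and 0 times in the other 2, and 17.5% of 33469 RefSeq promoters of this length hold it. GGGCGG was found 1 time each in Htr5a and Htr5b and 0 times in Htr2c, against 30.5% of all promoters. The GC content was 50.4% for Htr2c, 58.4% for Htr5a and 56.8% for Htr5b, with a median of 51.2% over all promoters. A match is a run of letters and was not tested for binding.

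Most of these genes differed between regions, some strongly and some little. The test for any difference between the 7 regions (limma's moderated F test, Benjamini-Hochberg adjusted over 31042 probe sets) was passed by 14 of the 17 probe sets, where 65.3% of all probe sets passed it. Those that did not pass were Htr1b (adjusted p = 0.267) and the 2 probe sets at the floor throughout. The share of a probe set's variance that lay between regions was 94.9% for Htr2c, 88.8% for Htr5b, 81.4% for Htr2a, 77.0% for Htr4, 76.7% for Htr7 and 71.2% for Htr1a. It was 47.5% for Htr1d, 31.5% for Htr5a, 19.6% for Htr3a and 11.6% for Htr1b, against a median of 31.9% over all probe sets. The levels by region are drawn for each gene. Many probe sets of the array differed between most pairs of regions, which is the background for the pairs below. Against the frontal cortex, 37.2% of all probe sets passed for the septum, 30% for the hippocampus, 44.4% for the dorsal raphe and 43.7% for the locus coeruleus. Against the hypothalamus, 32.1% passed for the septum, 38.6% for the amygdala, 37.3% for the hippocampus, 26.1% for the dorsal raphe and 28.7% for the locus coeruleus. The share was 26.6% for septum and amygdala, 37.2% for septum and dorsal raphe, 28% for amygdala and hippocampus, 39.5% for amygdala and dorsal raphe and 41.7% for hippocampus and locus coeruleus. The dorsal raphe and locus coeruleus were the exception, with 6.51%.

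**Figure D1:**
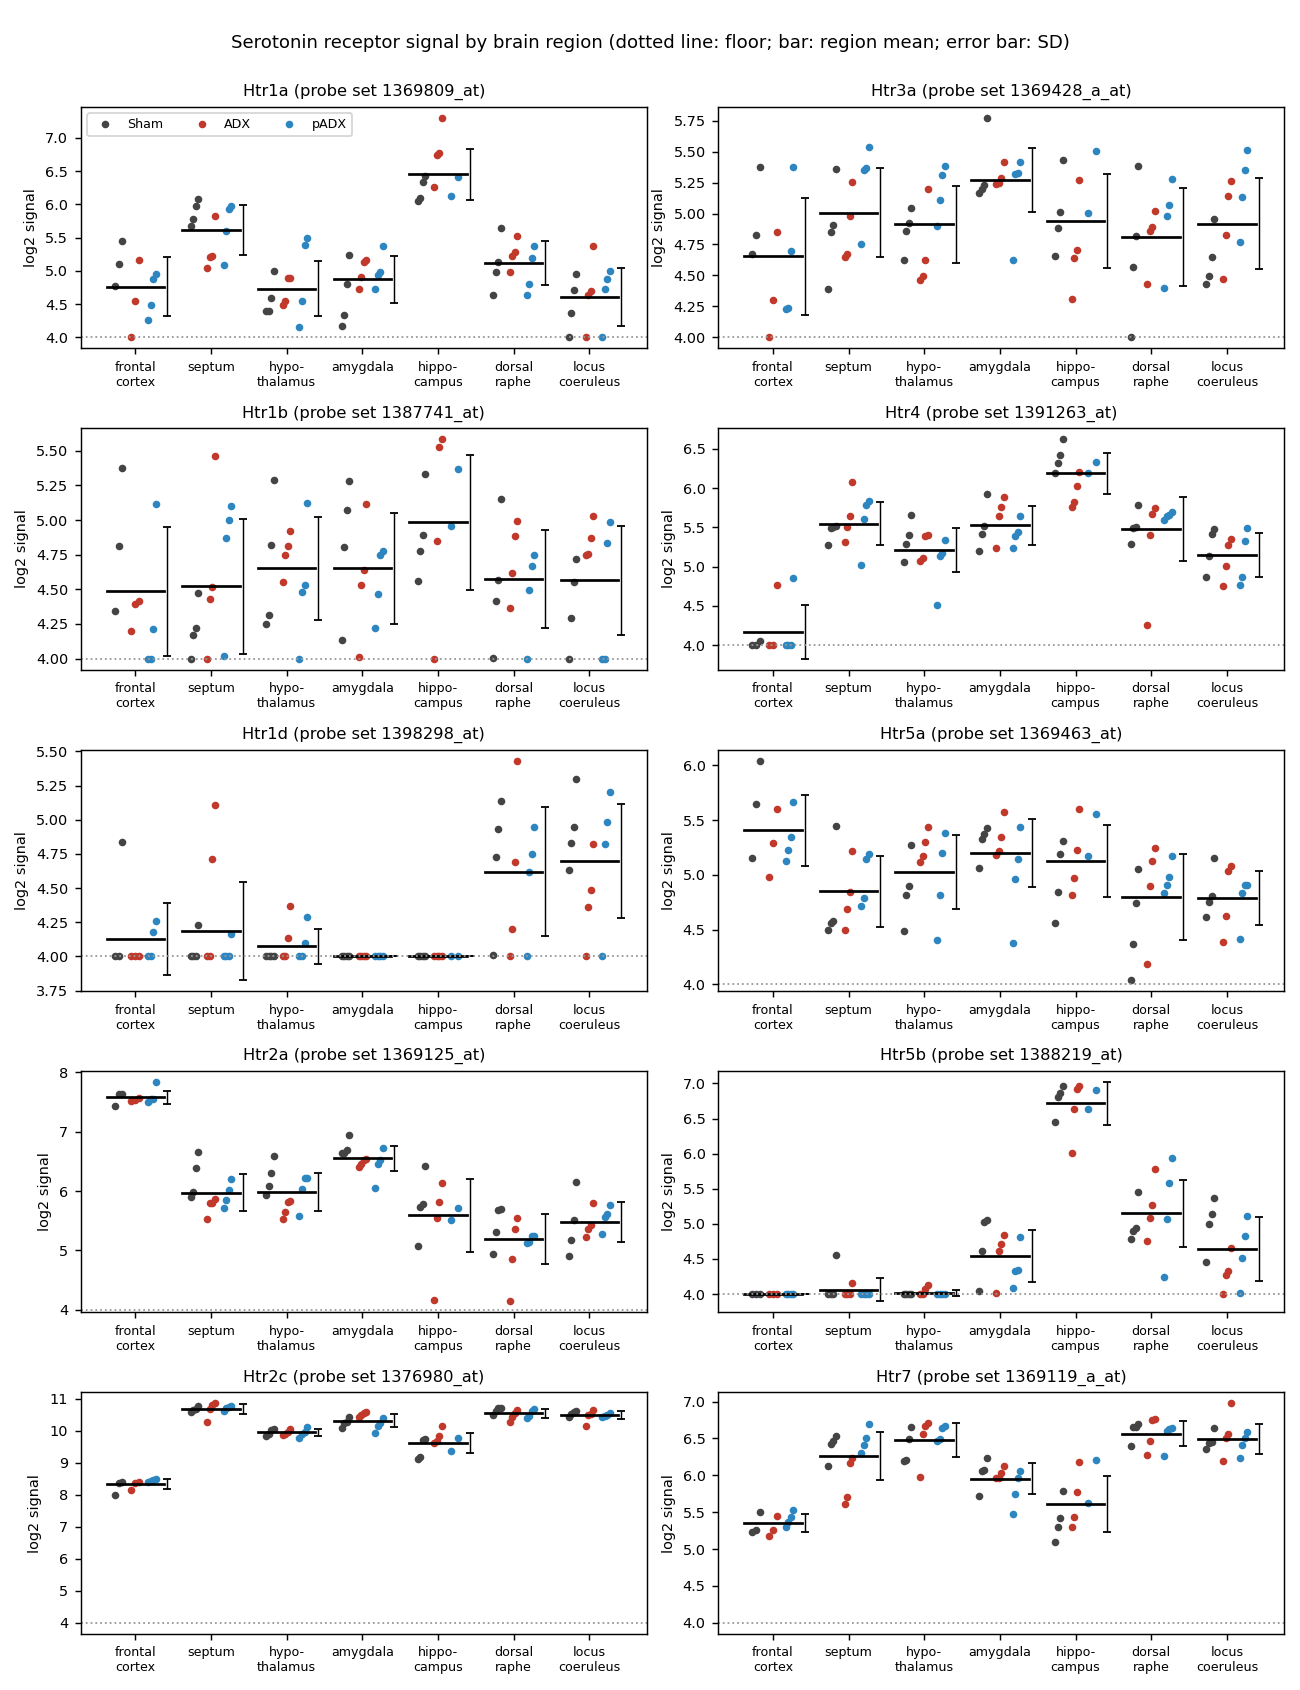
Log2 signal (vertical axis, one scale per gene) of the 10 serotonin receptor genes in 7 brain regions, 1 point per array coloured by treatment, with the region mean (bar) and SD (error bar); the dotted line is the floor at 4. Htr2a is highest in the 10 frontal cortex arrays (7.44 to 7.84) and Htr2c lowest there (7.998 to 8.50), while Htr5b is at the floor in all frontal cortex arrays and highest in the hippocampus (6.01 to 6.97).

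The 2 Gq-coupled receptors ran in opposite directions between the frontal cortex and the rest. Htr2a codes for the 5-HT2A receptor, known from cortical pyramidal cells as the target of serotonergic hallucinogens. Its frontal cortex arrays ranged from 7.44 to 7.84 with a median of 7.55 (mean 7.58 ± 0.11 SD, n = 10), and its amygdala arrays from 6.06 to 6.95 with a median of 6.53 (6.55 ± 0.21, n = 12). No frontal cortex array overlapped an array of any other region, and the fitted difference to the amygdala, next in order, was 1.04 (SE 0.14, limma adjusted p = 1.08e-08), a 2.06-fold higher signal, in a pair of regions where 25.3% of all probe sets passed. The amygdala lay 0.57 above the hypothalamus (SE 0.13, adjusted p = 0.000261). The hypothalamus (5.98 ± 0.32, n = 12) and septum (5.98 ± 0.31, n = 12) did not differ beyond their spread, and the septum was 0.37 above the hippocampus (adjusted p = 0.0453). The hippocampus (5.59 ± 0.62, range 4.15 to 6.43), locus coeruleus (5.48 ± 0.33) and dorsal raphe (5.19 ± 0.42) followed, and neighbours among these 3 did not pass the test. The lowest Htr2a value in the hippocampus, 4.15, came from ADX PM replicate 1, an array whose deposited signal was the lowest of all (trimmed mean 34.1).

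Other probe sets of Htr2a gave the same top region. Probe set 1369124_at averaged 6.44 ± 0.23 in the frontal cortex and 5.56 ± 0.35 in the amygdala, and 1387752_s_at averaged 5.20 ± 0.17 and 4.45 ± 0.40. Over the 7 region means, which share the arrays, they correlated with the first probe set at r = 0.967 and 0.965. Among 10828 candidate probe sets, the genes most like Htr2a over the 80 arrays were Rgs4, a regulator of G-protein signalling (r = 0.857), Zdhhc2, a palmitoyltransferase (r = 0.846), and Slc39a10, a zinc transporter (r = 0.838).

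Htr2c codes for the 5-HT2C receptor, which is known for its part in feeding and mood and for its very high level in the choroid plexus, the tissue that secretes cerebrospinal fluid. Its lowest region was the frontal cortex, with arrays from 7.998 to 8.50 and a median of 8.39 (8.35 ± 0.15, n = 10). Its highest was the septum, from 10.29 to 10.86 with a median of 10.69 (10.68 ± 0.15, n = 12). The 2 groups lay far apart, by 2.35 (SE 0.07, limma adjusted p = 2.61e-37) or 5.09-fold. The dorsal raphe (10.55 ± 0.14) did not pass the test against the septum (adjusted p = 0.145) nor the locus coeruleus (10.49 ± 0.12) against the dorsal raphe (adjusted p = 0.768). Below these came the amygdala (10.32 ± 0.20), hypothalamus (9.95 ± 0.10) and hippocampus (9.62 ± 0.31), each lower than its upper neighbour (adjusted p = 0.0396, 4.83e-06 and 0.000182). The hippocampus was still 1.30 above the frontal cortex (SE 0.08, adjusted p = 1.08e-22), with no overlap of arrays. The second probe set, 1369860_a_at, had the same top and bottom regions (7.18 ± 0.20 in the septum, 5.39 ± 0.34 in the frontal cortex), and there the septum was 0.53 above the dorsal raphe (adjusted p = 0.000489).

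Choroid plexus RNA differed between arrays and is set beside Htr2c for that reason. Ttr (transthyretin), the most abundant transcript of that tissue, averaged 12.34 in the hippocampus, 11.75 in the amygdala, 7.26 in the locus coeruleus, 7.24 in the septum, 6.46 in the hypothalamus, 5.34 in the frontal cortex and 5.07 in the dorsal raphe. The dorsal raphe had the lowest mean Ttr and the second-highest Htr2c, and the hippocampus the highest Ttr and the second-lowest Htr2c. Within the septum, Htr2c was 10.74 in the array with the highest Ttr (12.60) and 10.59 in the array with the lowest (4.47). Within the locus coeruleus the corresponding Htr2c values were 10.64 (Ttr 11.92) and 10.52 (Ttr 5.04). In the hippocampus Htr2c was 9.75 at the highest Ttr (12.75) and 9.20 at the lowest (10.51). For the amygdala the values were 10.45 (Ttr 12.86) and 10.10 (Ttr 7.54). In the dorsal raphe it was 10.71 and 10.39 and in the hypothalamus 9.96 and 9.88, while in the frontal cortex it was lower at the highest Ttr, 7.998 against 8.41. The part of plexus RNA in the Htr2c levels was not tested. Of 11 plexus markers listed, 9 were measured, 7 of them highest in the hippocampus, and Kl (klotho) was at the floor in every array of the frontal cortex, hypothalamus, dorsal raphe and locus coeruleus. The summed log2 level of the 9 markers ran from 52.3 to 71.0 in the hippocampus, from 45.2 to 63.9 in the septum, from 48.5 to 51.8 in the dorsal raphe and from 43.2 to 48.5 in the frontal cortex. The genes most like Htr2c over the 80 arrays were Spock3, a matrix proteoglycan (r = 0.866), Tekt1, a tektin of cilia (r = 0.862), and Dach1, a transcription factor (r = 0.822).

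**Figure D2:**
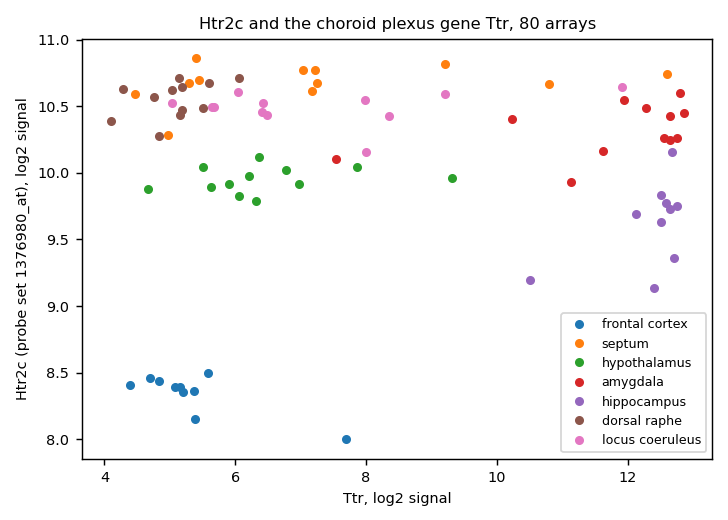
Htr2c log2 signal (vertical axis) against log2 signal of the choroid plexus gene Ttr (horizontal axis), 1 point per array for 80 arrays coloured by region. Ttr spans 8.14 log2 units within the septum while Htr2c spans 0.57, and the dorsal raphe combines low Ttr (4.09 to 6.05) with high Htr2c (10.28 to 10.71).

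Among the Gi/o-coupled receptors, Htr1a and Htr5b were highest in the hippocampus. Htr1a codes for the 5-HT1A receptor, the autoreceptor on serotonergic cell bodies, which is also found on target neurons of the hippocampus and septum. Its hippocampal arrays ranged from 6.06 to 7.30 with a median of 6.37 (6.45 ± 0.39, n = 10), and its septal arrays from 5.05 to 6.08 with a median of 5.73 (5.62 ± 0.38, n = 12). Only the edges of the groups met, and the fitted difference was 0.86 (SE 0.17, limma adjusted p = 5.46e-05), where 23.0% of all probe sets passed for this pair. The septum was 0.50 above the dorsal raphe (5.12 ± 0.32, adjusted p = 0.00981). The amygdala (4.87 ± 0.36), frontal cortex (4.76 ± 0.44, 1 array at the floor), hypothalamus (4.73 ± 0.41) and locus coeruleus (4.61 ± 0.44, 3 arrays at the floor) followed with no neighbouring pair passing. On the values as deposited, with no normalization between arrays, the hippocampus and septum did not differ in Htr1a (0.00, adjusted p = 1), on a scale where the median over all probe sets was 0.63 higher in the septum. The genes most like Htr1a over the 80 arrays were Nr3c2, the mineralocorticoid receptor (r = 0.758), Klf3, a transcription factor (r = 0.706), and Ppp1cc, a phosphatase subunit (r = 0.694).

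Htr5b, a receptor gene active in rodents and disrupted in humans, was highest in the hippocampus and at the floor in most arrays of 3 regions. Its hippocampal arrays ranged from 6.01 to 6.97 with a median of 6.84 (6.72 ± 0.30, n = 10). The dorsal raphe came next (5.15 ± 0.48, range 4.25 to 5.93), 1.54 lower (SE 0.13, limma adjusted p = 3.37e-16) and without overlap, in a pair of regions where 41.3% of all probe sets passed. The locus coeruleus (4.64 ± 0.45) was 0.51 below the dorsal raphe (adjusted p = 0.00556, 6.51% of all probe sets passing for this pair), and the amygdala (4.54 ± 0.37) did not differ from the locus coeruleus beyond its spread. Elsewhere the gene was mostly at the floor, in 10 of 12 septal, 10 of 12 hypothalamic and 10 of 10 frontal cortex arrays. With the frontal cortex at the floor, the hippocampal mean was at least 6.58-fold higher. Its relative Htr5a showed no such pattern. Htr5a ranged from 5.41 ± 0.32 in the frontal cortex to 4.79 ± 0.25 in the locus coeruleus, and no 2 neighbours in the order differed, although the frontal cortex was 0.60 above the dorsal raphe (SE 0.14, adjusted p = 0.000269). The genes most like Htr5a over the 80 arrays were Wdr7 (r = 0.613), the potassium channel gene Kcnj9 (r = 0.612) and Hdlbp (r = 0.595).

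Htr1b and Htr1d code for autoreceptors on serotonergic terminals. Htr1d stood above the floor mainly in the brainstem pieces, at 4.70 ± 0.42 in the locus coeruleus (2 of 12 arrays at the floor) and 4.62 ± 0.47 in the dorsal raphe (2 of 12). In the septum 8 of 12 arrays were at the floor, in the frontal cortex 7 of 10, in the hypothalamus 8 of 12, in the hippocampus 9 of 10 and in the amygdala 12 of 12. The dorsal raphe was 0.44 above the septum, next in order (SE 0.12, limma adjusted p = 0.00293). Htr1b means lay between 4.49 and 4.98 in all regions, highest in the hippocampus (4.98 ± 0.49, range from the floor to 5.58), and no neighbouring pair passed. Frontal cortex minus hippocampus was -0.51 (SE 0.19, limma adjusted p = 0.0383 for that pair alone), although the test over all regions did not pass. Without hippocampus ADX PM replicate 1, an omission chosen after seeing the data, 15 probe sets passed the region test, with Htr1b added. In that fit hippocampal Htr1b was 0.44 above the hypothalamus (limma adjusted p = 0.0444). The share of all probe sets passing in that fit is not given here, so these calls have no background.

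The dorsal raphe and locus coeruleus pieces shared markers, which bears on every receptor that was high in both. The serotonin transporter gene Slc6a4 averaged 10.66 in the dorsal raphe (9.84 to 11.36) and 9.61 in the locus coeruleus (8.11 to 10.65), and at most 4.15 in any other region. Fev, the transcription factor of serotonergic neurons, averaged 6.86 and 5.85. Of 5 serotonergic markers listed, 4 were measured, and their summed log2 level ran from 34.5 to 38.8 in the dorsal raphe, from 31.6 to 36.1 in the locus coeruleus and no higher than 26.5 elsewhere. Dbh, the noradrenaline-synthesising enzyme, averaged 8.34 in the locus coeruleus and 4.13 in the dorsal raphe. Summed over 4 noradrenergic markers, log2 levels ran from 22.4 to 31.5 in the locus coeruleus and from 20.0 to 22.1 in the dorsal raphe. The lowest locus coeruleus array was thus close to the highest dorsal raphe array. Whether serotonergic cells account for Htr1d, Htr7 or Htr5b in the locus coeruleus arrays was not tested.

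The Gs-coupled receptors Htr4 and Htr7 had different orders. Htr4 was highest in the hippocampus, from 5.76 to 6.62 with a median of 6.20 (6.19 ± 0.26, n = 10). The septum (5.55 ± 0.28), amygdala (5.52 ± 0.25) and dorsal raphe (5.48 ± 0.41) followed at nearly 1 level, the septum 0.63 below the hippocampus (SE 0.13, limma adjusted p = 0.000181). The hypothalamus (5.21 ± 0.28) and locus coeruleus (5.14 ± 0.28) were lower, and the frontal cortex lay near the floor (4.17 ± 0.34, 7 of 10 arrays at it), 0.98 below the locus coeruleus (SE 0.13, adjusted p = 4.44e-09). For Htr4, hippocampus minus septum was -0.21 on the values as deposited, where the median over all probe sets was 0.63 higher in the septum. The genes most like Htr4 were Dock10 (r = 0.802), the orphan receptor gene Gpr161 (r = 0.786) and Rerg, a Ras-like protein gene (r = 0.77), over the 80 arrays.

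Htr7, studied in the hypothalamus for its part in circadian timing and body temperature, was higher in brainstem and hypothalamus than in cortex. It averaged 6.57 ± 0.17 in the dorsal raphe, 6.49 ± 0.20 in the locus coeruleus, 6.48 ± 0.23 in the hypothalamus and 6.27 ± 0.33 in the septum, with no 2 neighbours in this order passing the test. The amygdala (5.95 ± 0.21) was 0.31 below the septum (limma adjusted p = 0.0133) and the hippocampus (5.61 ± 0.38) 0.33 below the amygdala (adjusted p = 0.0134). The frontal cortex arrays ran from 5.17 to 5.53 (5.35 ± 0.12, n = 10), none as high as the lowest dorsal raphe array at 6.27, and the difference was 1.20 (SE 0.11, adjusted p = 1.28e-15). Without normalization between arrays the septum led the order (6.56) and the hippocampus was last (5.14). On that scale the median over all probe sets was 0.63 higher in the septum than in the hippocampus. The weak second probe set, 1387466_a_at, was highest in the hypothalamus (4.40 ± 0.38, 2 of 12 arrays at the floor) and at the floor in all frontal cortex and hippocampal arrays. The genes most like Htr7 were Fem1c (r = 0.868), Resp18, a secretory granule protein gene (r = 0.856), and the gene listed as Apeg3 (r = 0.847), over the 80 arrays.

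Htr3a, the channel subunit found on a class of cortical and hippocampal interneurons, varied little. It averaged 5.27 ± 0.26 in the amygdala (4.62 to 5.77), 5.01 ± 0.36 in the septum and 4.65 ± 0.47 in the frontal cortex, its lowest region. The amygdala was 0.67 above the frontal cortex (SE 0.14, limma adjusted p = 8.4e-05), with overlapping arrays, and no 2 neighbours in the order differed. The genes most like it over the 80 arrays reached r = 0.478 (Pold2), 0.453 (Necab2) and 0.434 (Cpne2).

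Over the 7 region means, some pairs of the 45 ran together or opposite and others showed no relation. Htr2a correlated with Htr2c at r = -0.76 and with Htr5a at 0.86, and Htr5a with Htr7 at -0.88. Htr2c ran with Htr7 (0.82) and Htr1a with Htr5b (0.77), whereas Htr1a with Htr5a (-0.02), Htr1a with Htr2c (0.04) and Htr3a with Htr5b (0.06) lay near 0. These values describe 7 points taken from the same arrays and carry no test.

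Of the rest of the serotonin system, 65 genes were measured and 59 differed between regions. Among other receptors 1 of 4 passed, Htr1f, highest in the hippocampus (4.51) and lowest in the dorsal raphe (4.08). Htr2b was at the floor in every array, Htr3b in all but 1 and Htr6 in most. Genes of serotonin synthesis, transport and breakdown passed in 13 of 13, those of the Gi/o arm in 12 of 13, of the Gq/11 arm in 11 of 12, of the Gs arm in 13 of 13 and receptor partners in 9 of 10. Read against the 65.3% of all probe sets that passed, these counts show that a regional difference was common.

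Region and array scale were linked, which limits these orders. Every amygdala, septum and frontal cortex array had been scaled to 1 trimmed mean (150), as had 2 of 12 dorsal raphe and 7 of 12 locus coeruleus arrays but none of the hippocampus or hypothalamus, where trimmed means ran from 34.1 to 171. Beyond the serotonergic genes in the locus coeruleus, 5 of 5 measured striatal markers were highest in the septum pieces, and the actin 3'/5' ratio, a measure of RNA integrity in which higher is worse, ran from 1.73 to 2.95 in the hippocampus and from 3.12 to 6.03 in the dorsal raphe. The part of scale, dissection and RNA quality in the regional differences was not tested, and for the hippocampus and hypothalamus region and scale cannot be told apart.

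The comparison of treatments asked whether removal of adrenal hormones moved these receptors. It was made over 12 units, each the mean of 5 regions for 1 treatment, time and replicate. The frontal cortex and hippocampus were left out because only the other 5 regions had all 12 arrays. In the frontal cortex, Sham AM and ADX AM had replicate 2 only. None of the 17 probe sets passed for ADX against Sham (limma, 1 with unadjusted p under 0.05), where 0.132% of all probe sets, 41, passed. None passed for pADX against Sham (1 unadjusted, 0.00644% of all passing) or for ADX against pADX (1 unadjusted, 0.0483%). The 3 unadjusted values were all of Htr2a. With so few passing among all genes, a count of 0 is near the background and says little about the receptors.

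Htr2a came closest. Its Sham units were 6.01, 6.02, 6.04 and 5.96 (6.01 ± 0.04, n = 4), its ADX units 5.72, 5.84, 5.44 and 5.69 (5.67 ± 0.17) and its pADX units 5.87, 5.92, 5.78 and 5.73 (5.83 ± 0.08). Every ADX and every pADX unit was below every Sham unit, which held for 1.87% and 1.59% of all probe sets. The ADX difference was -0.34 (SE 0.06, 95% interval -0.48 to -0.19) and had an adjusted p of 0.13 by limma, ranging from 0.00157 to 0.377 over the alternatives. The pADX difference was -0.18 (SE 0.06, adjusted p = 0.558). On the values as deposited the ADX difference was -0.58 (adjusted p = 0.00157), against a median of -0.21 over all probe sets, 44.2% of which passed there. Array scale moved with treatment in some regions. In the locus coeruleus the common trimmed mean was found in 4 of 4 Sham, 3 of 4 pADX and 0 of 4 ADX arrays. Dorsal raphe trimmed means ran from 110 to 150 in Sham, from 83.7 to 102 in ADX and from 87.7 to 124 in pADX. Hypothalamic trimmed means ran from 94.2 to 118 in Sham, from 73.6 to 96.4 in ADX and from 89.7 to 109 in pADX. The part of array scale in the deposited-scale difference was not tested.

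By region, the Htr2a probe set of highest mean signal was lower in ADX in the hypothalamus, septum and amygdala without overlap. The values in this paragraph are those of that probe set alone. The share of all probe sets without overlap within a region was not counted, so this separation has no background. In the hypothalamus the Sham arrays read 6.31, 6.09, 5.93 and 6.60 and the ADX arrays 5.82, 5.52, 5.64 and 5.82 (-0.53, SE 0.19, limma adjusted p = 0.66). In the septum the Sham arrays read 5.98, 6.66, 6.38 and 5.91 and the ADX arrays 5.54, 5.87, 5.80 and 5.79 (-0.48, SE 0.18, adjusted p = 0.383). In the amygdala the Sham arrays ran from 6.64 to 6.95 and the ADX arrays from 6.40 to 6.54 (-0.25). The difference was -0.43 in the dorsal raphe and -0.35 in the hippocampus. It was 0.02 in the locus coeruleus and -0.03 in the frontal cortex, where the gene was highest. The hippocampal and dorsal raphe values each rested on 1 array, ADX PM replicate 1 (4.15 and 4.14). Without it, ADX minus Sham of the plain means was 0.07 in the hippocampus and -0.15 in the dorsal raphe, a check added after the values were seen. No region's value passed adjustment, where at most 0.0226% of all probe sets passed in any region (0.0129% in the amygdala). For pADX against Sham the highest such share was 0.0193%, in the hippocampus, and no receptor passed there.

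Over the 12 units, the second Htr2a probe set was not lower in ADX. For 1369124_at the ADX units (5.08, 5.24, 5.28 and 5.12) averaged 0.17 above the Sham units (4.88, 5.14, 5.03 and 4.99; SE 0.10, limma adjusted p = 0.714), and the 2 groups overlapped. On the values as deposited the difference for this second probe set was -0.08, the only 1 of 25 alternatives in which it was negative. Its 95% interval over the 12 units, -0.07 to 0.40, included 0.

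**Figure D3:**
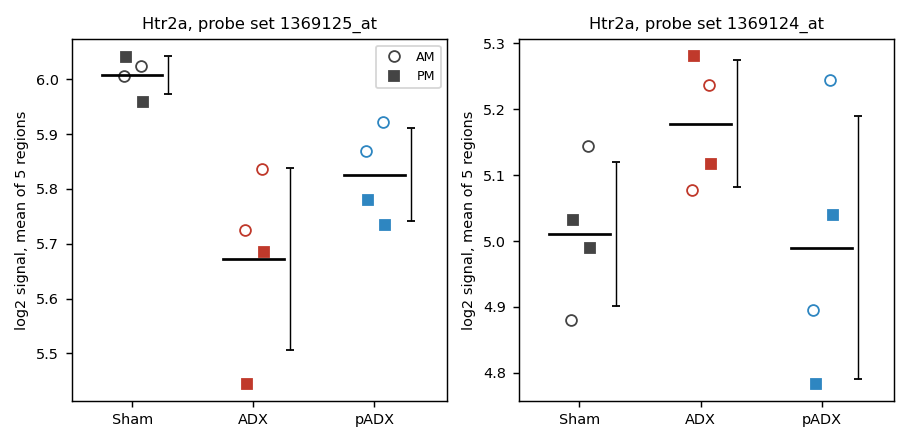
Log2 signal of Htr2a averaged over 5 regions (vertical axes, each with its own scale) for the 4 units of each treatment, by probe set; open circles are AM, filled squares PM, bars are means and error bars SD. With 1369125_at all ADX and pADX units lie below the Sham units (5.96 to 6.04); with 1369124_at the groups overlap.

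None of the other receptors passed either. For ADX against Sham, Htr2c differed by 0.00 (SE 0.05, 95% interval -0.10 to 0.11), Htr7 by -0.07 (-0.17 to 0.04) and Htr4 by -0.04 (-0.23 to 0.15). Htr1a differed by 0.05 (-0.21 to 0.30), Htr1d by -0.02 (-0.26 to 0.22) and Htr5b by -0.13 (-0.40 to 0.14). Intervals were widest for Htr1b (0.17, -0.14 to 0.48), Htr3a (0.04, -0.27 to 0.35) and Htr5a (0.15, -0.14 to 0.43). For pADX against Sham the largest difference was that of Htr3a, 0.26 (SE 0.14, 95% interval -0.05 to 0.57, limma adjusted p = 0.706), with Sham units at 4.62, 4.96, 4.80 and 5.14 and pADX units at 5.17, 5.18, 4.85 and 5.38. These groups overlapped. For ADX against Sham, the median over the 10 genes was -0.01, beside 0 over all probe sets. On the values as deposited Htr2c, Htr4, Htr5b and Htr7 also passed, each lower in ADX by 0.27 to 0.34, where the median of all probe sets was -0.21.

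**Figure D4:**
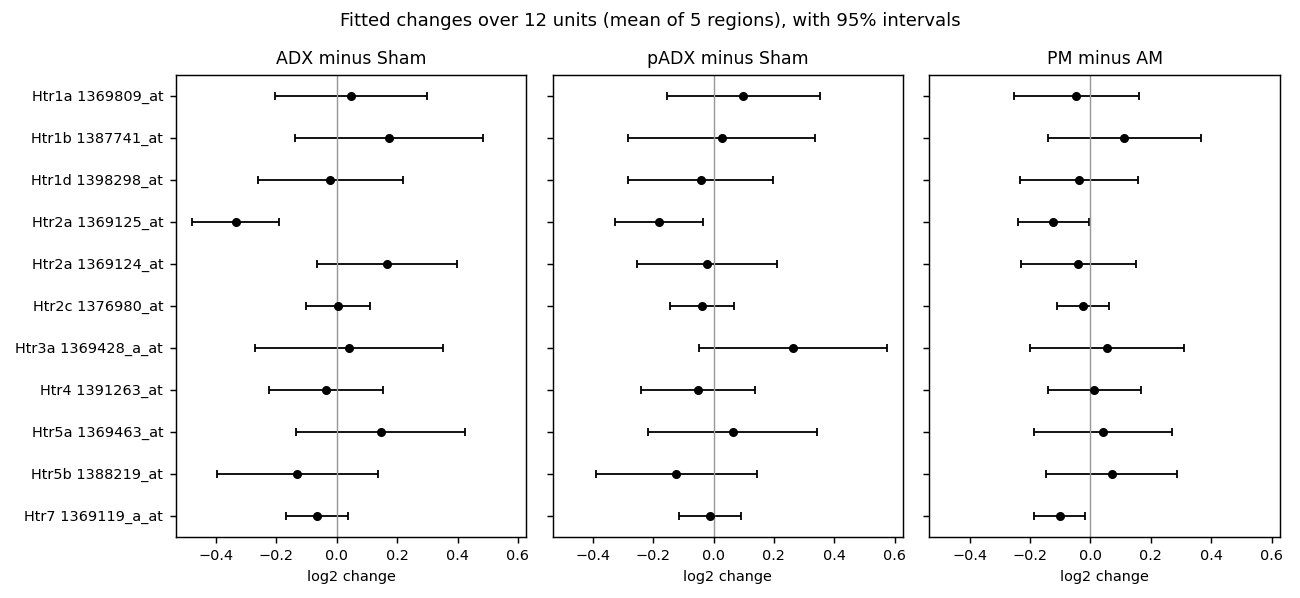
Fitted log2 changes (horizontal axis) with 95% intervals for ADX minus Sham, pADX minus Sham and PM minus AM over 12 units, for the 10 receptor genes and the second Htr2a probe set. The Htr2a probe set 1369125_at lies at -0.34 and -0.18 in the first 2 panels, while Htr2c lies at 0.00 and -0.04.

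In the hippocampus, the region best known for corticosteroid control of Htr1a, the gene read 6.27, 6.78, 7.30 and 6.74 in ADX and 6.09, 6.42, 6.06 and 6.33 in Sham. Of the 4 ADX arrays, 3 were above every Sham array, and the difference was 0.55 (SE 0.22, 95% interval 0.02 to 1.07), with an adjusted p of 0.542 by limma. By plain means it was 0.54 without ADX PM replicate 1. In the septum the same gene read 5.21, 5.05, 5.83 and 5.23 in ADX and 5.98, 5.78, 5.68 and 6.08 in Sham, a difference of -0.55 (SE 0.23, adjusted p = 0.454). Across all regions the treatment response of Htr1a did not pass a test for differing by region (adjusted p = 0.502).

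Further values in single regions stayed above adjustment too. Hippocampal Htr4 read 5.76, 6.20, 6.03 and 5.82 in ADX and 6.41, 6.19, 6.32 and 6.62 in Sham (-0.43, SE 0.14, limma adjusted p = 0.465), and -0.52 by plain means without ADX PM replicate 1. Septal Htr7 read 5.62, 6.17, 6.24 and 5.71 in ADX and 6.54, 6.13, 6.47 and 6.43 in Sham (-0.46, SE 0.17, adjusted p = 0.379). The second Htr2c probe set, 1369860_a_at, read 5.15, 4.66 and 5.04 in frontal cortex ADX and 5.44, 5.46 and 5.77 in Sham. The groups did not overlap, and the difference was -0.61 (SE 0.15, limma adjusted p = 0.286). How many of all probe sets separate so in 3 against 3 arrays was not counted. The brighter Htr2c probe set read 8.16, 8.36 and 8.39 in the same ADX arrays and 8.39, 8.36 and 7.998 in Sham (0.05, SE 0.11, adjusted p = 0.984), so it was not lower. In each of these fits at most 7 of 31042 probe sets passed, 0.0226% for ADX against Sham in the septum, 0.0161% in the frontal cortex and 0.00322% in the hippocampus.

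The treatment response did not pass a test for differing between regions in any receptor probe set, 0 of 17 (limma moderated F test, 2 with unadjusted p under 0.05, 1369119_a_at of Htr7 and 1369860_a_at of Htr2c), where 2.62% of all probe sets passed. Of the 65 other genes of the serotonin system 1 passed, Plcb1, a phospholipase C isoform downstream of Gq (limma moderated F test, adjusted p = 0.0254). Beside 2.62% of all probe sets, a count of 1 in 65 is near the background and says little about the system. In the frontal cortex Plcb1 averaged 9.34 ± 0.62 in Sham and 10.02 ± 0.08 in ADX (n = 3 each), and in the locus coeruleus 8.82 ± 0.09 and 8.64 ± 0.12 (n = 4 each). The frontal cortex Sham arrays ran from 8.80 to 10.02 and overlapped the ADX arrays (9.95 to 10.10). For pADX the means were 9.84 in the frontal cortex and 8.75 in the locus coeruleus. None of these 65 genes passed for ADX or pADX against Sham across regions.

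Time of day was compared because corticosteroids and serotonin turnover both follow a daily rhythm. No receptor probe set passed for PM against AM over the 12 units (limma, 2 with unadjusted p under 0.05), where 0.00966% of all probe sets, 3, passed. Htr7 was lower in PM by 0.10 (SE 0.04, 95% interval -0.19 to -0.02, adjusted p = 0.389), its AM units reading 6.51 and 6.37 in Sham, 6.32 and 6.40 in ADX and 6.42 and 6.39 in pADX, and its PM units 6.28 and 6.35, 6.19 and 6.33, and 6.37 and 6.28. AM and PM units overlapped. Htr2a was lower in PM by 0.12 (SE 0.05, adjusted p = 0.459). Within Sham no probe set had an unadjusted p under 0.05 (0.0773% of all passing after adjustment), within ADX 1 had, Htr2a (-0.22, adjusted p = 0.461, 0.029% of all passing), and within pADX none had (0.00966%). The time response did not pass a test for differing between regions in any of the 17 (2 with unadjusted p under 0.05, 0.28% of all passing).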

How the data were processed

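The deposited table gives linear signal intensity for 31099 probe sets on 82 arrays; how the authors summarized and scaled it was not given in the sources used here. Control probe sets (57) were left out, 31042 were tested, values were quantile normalized over all arrays, a floor of 16 was set (27.5% of values), and log2 taken. Probe sets took the platform annotation's symbol (1 symbol for 20826, several for 436, none for 9780), and a gene's probe set of highest mean log2 signal was described. Array regions came from titles and descriptions; the source labels of several regions name another region. Tests used limma 3.58.1 in R 4.3.3 (eBayes with trend) with Benjamini-Hochberg adjustment over all probe sets at 0.05. The region test had the 12 combinations of treatment, time and replicate as a block; treatments and times were fitted additively. Named similar genes are the 3 with the highest correlation over 80 arrays for members that passed the region test with at most 25% of arrays at the floor, the candidates meeting the same limit. The tests were tried on simulated data with known answers. The members and gene lists were chosen with earlier results of these data known. No depth applies to arrays; their number limits the precision. Alternatives were other scaling, floors, filters, blocks and left-out arrays.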

Additional observations from a re-analysis of the deposited data

Results flagged for a closer look

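Of 49 groups of 4 to 10 samples, 4 held a sample far from the others. The rate by chance, about 1 in 20, supposes values without ties, and both Htr1d groups below had arrays tied at the floor. In the frontal cortex, Htr1d read 4.84 in Sham PM replicate 1 and at most 4.26 in the other arrays, 7 of them at the floor. In the hippocampus, Htr1d read 4.0034 in ADX PM replicate 2 and was at the floor in the other 9 arrays, so the gap has no meaningful size. Htr2a in the frontal cortex read 7.84 in pADX AM replicate 1, with the next array at 7.64. Over the ADX units, Htr5b read 4.63 in PM replicate 2, with the next unit at 4.40.

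The 2 frontal cortex arrays that the labels put in no group were used in no comparison. Htr2a read at least 7.65 in both, where the highest frontal cortex Sham array read 7.64, and Htr2c read at least 8.47, where the highest Sham array read 8.39. The frontal cortex pADX arrays reached 7.84 for Htr2a and 8.50 for Htr2c. The lower of the 2 ungrouped arrays thus lay within the grouped range, and the higher (7.86 and 8.65) lay above it.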

How the results depend on the processing

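No receptor probe set passed in any of 30 comparisons of treatment or time, nor in 579 of 584 alternatives to them. Without replicate 1, 1 probe set passed for treatment by region (Htr2c 1369860_a_at). The share of all probe sets passing in that fit is not given here, so this call has no background. On the values as deposited, 5 passed for ADX against Sham across regions, 1 for ADX against pADX (Htr2a), 2 for ADX against Sham in the dorsal raphe (Htr2c, Htr4) and 1 in the locus coeruleus (Htr1d). In the last 3 of these, 11.5%, 24.9% and 14.5% of all probe sets passed. Deposited values also turned Htr2c, ADX minus Sham, to -0.29 and Htr4, hippocampus minus septum, to -0.21. There the median over all probe sets was -0.21 for ADX minus Sham and 0.63 higher in the septum than in the hippocampus. The count differing between regions was 10 to 15 over 12 alternatives, 10 without replicate 2 and 13 without replicate 1. The shares of all probe sets passing in these fits are not given here, so the counts have no background. With the replicate block, 0 receptor probe sets passed for ADX against Sham and no other call changed. Replicate numbers did not pair the units: deviations of same-numbered units correlated from -0.07 to 0.06 over 15 pairs of groups. The interaction without the 2 hippocampal pADX arrays could not be estimated and was not run, nor was it run on arrays at the common scale. Causes were not tested. Alternatives without the hippocampus and without ADX PM replicate 1 of the hippocampus or dorsal raphe were chosen after seeing the data.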
